A study of Mus musculus with 60 samples.

Results

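The autophagy machinery genes described here are the genes whose products build, load and close the autophagosome. They were taken from the table by their Ensembl identifiers as every protein-coding gene with a symbol of Atg and a digit (19 genes) and 15 further genes named one by one (Ulk1, Ulk2, Becn1, Rb1cc1, Map1lc3a, Map1lc3b, Gabarap, Gabarapl1, Gabarapl2, Sqstm1, Nbr1, Optn, Wipi1, Wipi2 and Pink1). This gave 34 of the 27238 genes. The levels came from RNA sequencing of single mouse embryos of 3 types at 6 stages and of the donor cells, in 60 libraries of 20 groups with 3 libraries each. In vivo embryos were recovered after C57BL/6 females had been superovulated and mated with DBA2 males, and received no further treatment. NTC embryos were enucleated oocytes of adult BDF1 females (BDF1 is the C57BL/6 by DBA2 hybrid, the strain of every sample) that had been given the nucleus of a cumulus cell (CC), and NTM embryos were the same oocytes with the nucleus of a mouse embryonic fibroblast (MEF). Both nuclear transfer (NT) types were activated with strontium chloride, cytochalasin B and the histone deacetylase inhibitor Scriptaid and then cultured in vitro, so NT differs from in vivo in nucleus, female strain (BDF1 oocyte donors against C57BL/6 mothers), activation, drug and culture at once, and these cannot be told apart. The stages were the pronuclear (1-cell), 2-cell, 4-cell and 8-cell embryo, the morula and the blastula. CCs were used fresh, and MEFs of BDF1 fetuses were passaged and kept in low serum before use. Embryos were collected over several independent experiments, but which library came from which is not given, so p-values measure the spread between these libraries.

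Autophagy encloses cytoplasm in a double membrane and delivers it to the lysosome. The ULK1 kinase complex (ULK1 or ULK2 with ATG13, ATG101 and RB1CC1, also called FIP200) starts the process, the Beclin 1 complex with ATG14 directs a lipid kinase to the site, and ATG9, ATG2 and the WIPI proteins supply and recognise membrane. A pair of ubiquitin-like reactions then couples ATG12 to ATG5 and couples the ATG8 proteins (the LC3 and GABARAP families) to lipid, where receptors such as SQSTM1 (p62) dock cargo. In the mouse, autophagy is known to be switched on soon after fertilisation and to be needed for development past the early cleavage stages when it is missing from the oocyte.

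Expression is given as RPKM, reads per kilobase of exon scaled to each library's total, so that levels of different genes can be set side by side per exon length. Libraries held 5294167 to 47830132 reads on genes (median 15451428), and the donor libraries (31558140 or more) were deeper than the embryo libraries (26281508 or fewer). A gene with 2000 exonic bases gains 0.0105 to 0.0944 RPKM from 1 read, and a value of 0 allows up to 3 reads by counting alone. Before the comparisons, 2 groups stood apart. The in vivo 4-cell libraries had 5.68% to 8.87% of their reads on genes of the mitochondrial genome against 29.6% to 40.4% in the 6 NT 4-cell libraries, and had 13576 to 13932 genes above 0 against 8997 to 11929. They correlated with each other at 0.944 to 0.958 across genes, but with the in vivo 8-cell libraries at 0.715 to 0.773 and with the NTC 4-cell libraries at 0.692 to 0.762. The in vivo blastula libraries had only 7730 to 7808 genes above 0 against 11498 to 13568 in NT blastulas. The part of these differences in the results of those stages was not tested. Fewer cells and less RNA per cell cannot be told apart in whole embryos. Oocyte markers such as Zp3 and Gdf9 summed to 2229 to 4714 RPKM in in vivo 1-cell embryos and were at 0 in in vivo blastulas, all 10 trophectoderm markers averaged 1 RPKM or more in in vivo blastulas, and fibroblast markers summed to 9004 to 11847 RPKM in MEFs. Of 10 cumulus markers 8 averaged 1 RPKM or more in CCs and 3 in MEFs, although their sums overlapped (439 to 1389 RPKM in CCs and 496 to 1209 RPKM in MEFs), with Has2 at 0 in every CC library and Foxl2 at 0 in every MEF library.

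Many autophagy genes were low in 1-cell and 2-cell embryos and higher from the 4-cell stage on. In vivo, 18 of the 34 members had their highest mean at the 4-cell stage, 10 had it at the 1-cell or 2-cell stage and 6 had it later. In NTC embryos the 4-cell stage was the highest for 8 members and in NTM embryos for 9. The share of all genes with their highest mean at each stage or in each group is not given, so these counts have no background. Of all genes tested in vivo, 31.4% rose from the 2-cell to the 4-cell stage and 39.3% fell from the 4-cell to the 8-cell stage. Atg5 and Atg12, whose products form the conjugate that attaches ATG8 proteins to lipid, were the most abundant of the early members, with means of 154 RPKM or more in in vivo 1-cell and 2-cell embryos. Optn, Wipi1, Atg4a, Nbr1, Atg10 and Ulk2 also had a higher median in the 18 libraries of 1-cell and 2-cell embryos than in the 36 libraries of later embryos, for example 7.29 against 0.156 RPKM for Optn and 16.2 against 6.63 RPKM for Nbr1. Across all 20 groups the in vivo 4-cell embryo had the highest mean for 11 members, CCs for 6 and MEFs for 5. Atg9b and Atg4a-ps had values above 0 in only 19 and 11 of the 60 libraries, and the highest group mean of Atg4a-ps was 2.65 RPKM, in NTM 1-cell embryos. Atg4a-ps is a near-identical copy of Atg4a, so reads could be split between the 2 and its values are uncertain.

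**Figure D1:**
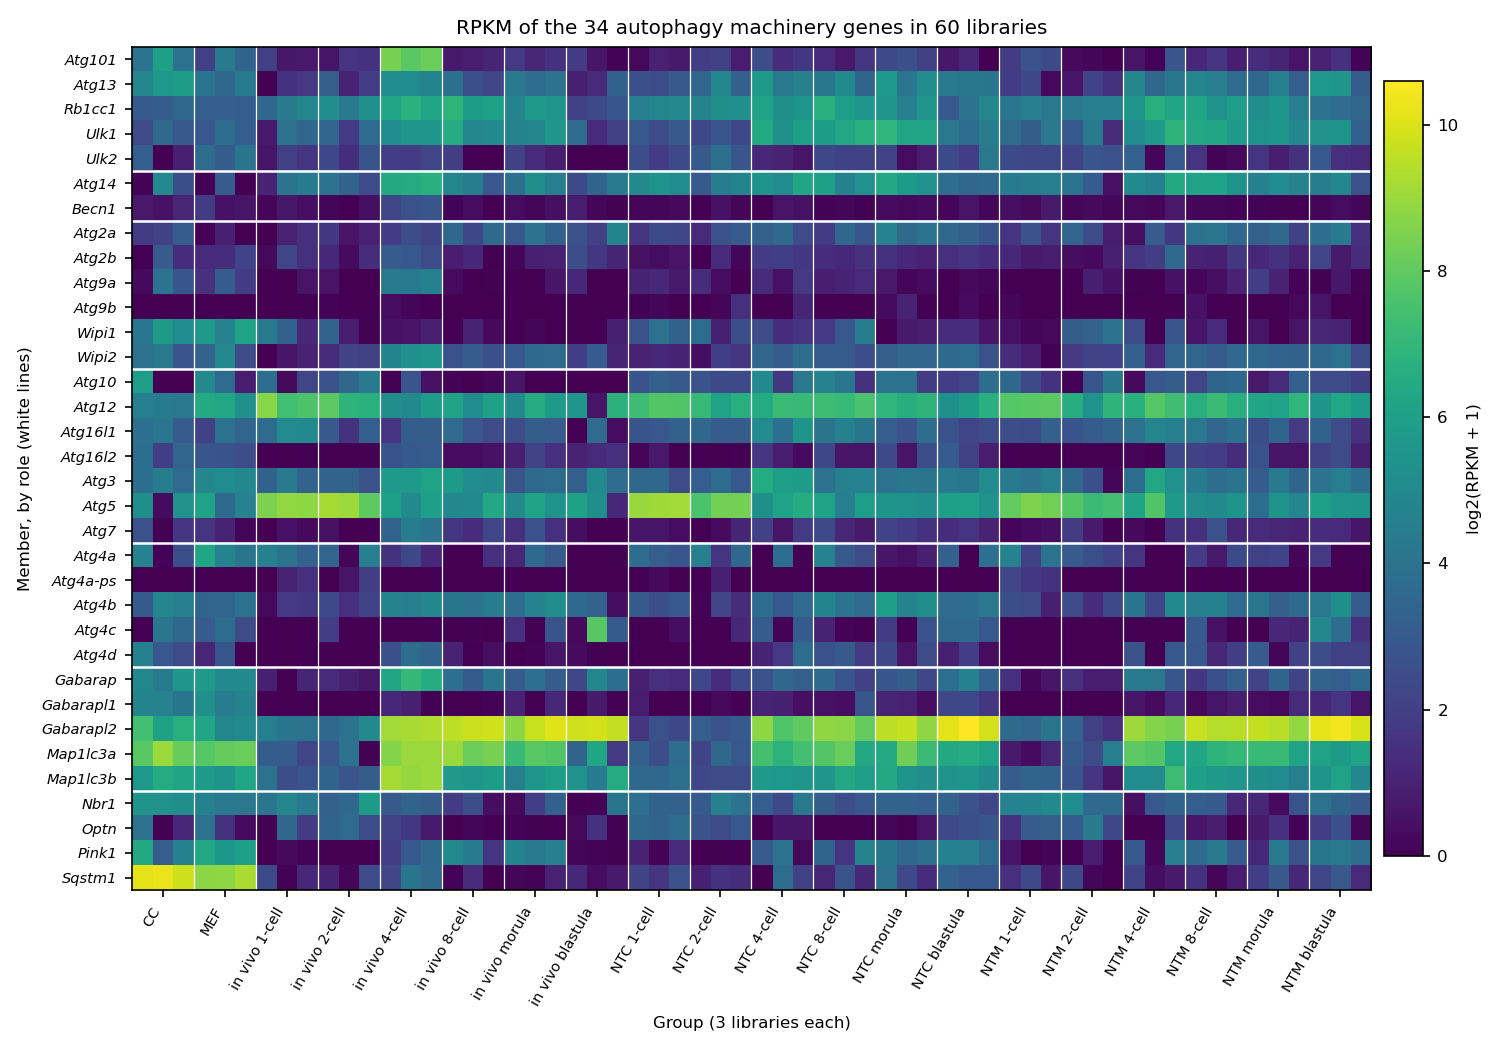
Heat map of log2(RPKM + 1) for the 34 members (vertical axis, white lines separate the roles) in the 60 libraries (horizontal axis, 3 libraries for each of 20 groups). Gabarapl2 is bright from the 4-cell stage on in all 3 embryo types, Atg5 and Atg12 are bright at the 1-cell and 2-cell stages, Sqstm1 is bright in CCs and MEFs, and Atg101, Gabarap and Map1lc3b are brighter in the in vivo 4-cell libraries than in other embryos.

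Because many members moved together at the 2-cell to 4-cell step, the DNA just before their start sites was searched for short motifs. RefSeq promoter windows (build GRCm38.p6, from 250 bases before to 50 bases after the start, both strands) were found for 28 of the 34 members. The CLEAR motif bound by the lysosomal regulator TFEB, searched as CACGTG with GT before it and AC after it, was in 0 of the 28 (0.326% of 32851 mouse windows hold it), and its core CACGTG was in those of Atg14, Atg3, Atg5 and Atg7 (7.15% of windows). The GC box GGGCGG was in 20 (35.7% of windows), CCAAT in 7 (37.4%) and TATAAA in Atg4a and Sqstm1 (13.6%). These are matches of letters and say nothing on binding. The 250 bases before the start are shown for the early member Atg5 (chr10:44268089-44268338), for the later and abundant Map1lc3b (chr8:121590188-121590437) and Gabarapl2 (chr8:111940453-111940702), and for Atg101 (chr15:101284051-101284300), the member that differed most at the 4-cell stage. All are on the plus strand and written 5′ to 3′, with matches to the searched motifs in capitals (CCGCCC is GGGCGG on the other strand).
Atg5: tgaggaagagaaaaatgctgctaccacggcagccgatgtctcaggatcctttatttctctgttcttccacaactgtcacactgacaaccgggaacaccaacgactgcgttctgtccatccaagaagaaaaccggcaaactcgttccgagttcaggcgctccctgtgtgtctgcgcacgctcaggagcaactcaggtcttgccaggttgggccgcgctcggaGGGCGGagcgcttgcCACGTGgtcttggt
Map1lc3b: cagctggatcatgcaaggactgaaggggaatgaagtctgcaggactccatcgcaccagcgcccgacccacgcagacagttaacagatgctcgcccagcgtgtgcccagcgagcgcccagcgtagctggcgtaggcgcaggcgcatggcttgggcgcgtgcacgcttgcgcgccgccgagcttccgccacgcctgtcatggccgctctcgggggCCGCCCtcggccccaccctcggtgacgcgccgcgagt
Gabarapl2: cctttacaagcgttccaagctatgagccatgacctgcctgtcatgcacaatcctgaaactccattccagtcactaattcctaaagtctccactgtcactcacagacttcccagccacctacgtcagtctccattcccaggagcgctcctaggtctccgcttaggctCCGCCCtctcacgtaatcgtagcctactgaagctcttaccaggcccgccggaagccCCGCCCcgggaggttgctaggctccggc
Atg101: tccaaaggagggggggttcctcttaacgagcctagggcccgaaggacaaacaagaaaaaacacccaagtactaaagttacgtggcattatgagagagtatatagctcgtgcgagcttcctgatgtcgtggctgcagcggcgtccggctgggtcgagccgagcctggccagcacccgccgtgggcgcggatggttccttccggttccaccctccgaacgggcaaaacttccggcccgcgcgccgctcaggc
Atg5 had a CACGTG starting 14 bases and a GGGCGG starting 29 bases before the start, Gabarapl2 had 2 GC boxes, Map1lc3b had 1, and Atg101 had no match in these 250 bases.

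From the 2-cell to the 4-cell stage, when the embryo turns from maternal RNA to its own transcription, the in vivo embryos gained RNA of most of the machinery and lost that of 4 members. Of 31 members that passed a filter of a mean RPKM of 0.5 in the libraries compared, 20 rose and 4 fell (limma, adjusted p under 0.05 and at least a 2-fold change). This step called 52.2% of all 12995 genes tested (31.4% rose and 20.8% fell). The median log2 fold change was 2.44 over the members tested and 0.36 over all genes tested. A member that passes the filter only through its 4-cell value has to differ. Becn1, Atg9a, Atg7, Atg16l2, Atg4d and Pink1 passed in this way, so their calls and p-values at this step are no support for a rise. The count that rose and the medians describe the members that passed and not the whole group. Of the 4 that fell, Atg5 and Atg12 were called with a pseudocount of 0.1, with no filter, in one fit over all 20 groups and without in vivo 4-cell replicate 3, where Atg10 and Optn were not.

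The kinase complex that starts autophagy rose in 4 of its 5 genes. Atg101, which stabilises ATG13 in the complex, had 0.524, 1.99 and 1.92 RPKM in the 3 in vivo 2-cell embryos and 342, 233 and 293 RPKM in the 4-cell embryos. The groups lay far apart, with a log2 fold change of 6.92 ± 0.41 (SE, n = 3 per group, adjusted p = 3.31e-05). Ulk1, the kinase itself, went from 9.87, 2.48 and 11.9 RPKM to 34.2, 45.4 and 46.5 RPKM, and all 4-cell values exceeded all 2-cell values (2.44 ± 0.55, adjusted p = 0.00803). Atg13 rose from a mean of 4.01 to 31.2 RPKM and the scaffold Rb1cc1 from 31.2 to 85.4 RPKM. Ulk2, the paralogue of Ulk1, had means of 3.71 and 3.07 RPKM and was not called (adjusted p = 0.836).

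Both members of the Beclin 1 complex rose. Atg14, the subunit that defines the autophagy form of the lipid kinase, rose from a mean of 9.78 to 91.9 RPKM. Becn1 had 0.144, 0.0204 and 0.351 RPKM at the 2-cell stage and 3.66, 5.24 and 6.09 RPKM at the 4-cell stage (2.34 ± 0.36, adjusted p = 0.00135). The in vivo 4-cell libraries held its highest values in the series, above those of every CC and MEF library (at most 2.74 RPKM). In GENCODE M21 79.4% of the last 500 exonic bases of Becn1 lie over the opposite-strand gene Cntd1, and use of strand in the counting is not stated, so reads of the 2 genes cannot be told apart. Cntd1 itself was at 0 in the in vivo 4-cell libraries.

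Of the membrane genes, Atg9a, which encodes the transmembrane lipid scramblase, rose from 0.485, 0 and 0 RPKM to 18.5, 18.6 and 24.1 RPKM (4.22 ± 0.36, adjusted p = 0.000108). All of its last 500 exonic bases overlap other annotated genes. Its exons overlap those of Ankzf1, whose mean in the in vivo 4-cell embryo was 0.833 RPKM, and of Gm29253, whose values were not examined. Of 1878 shared bases 1832 lie on the same strand, where reads cannot be told apart by strand. Wipi2, which reads the lipid made by the Beclin 1 complex, rose from 1.55, 3.56 and 3 RPKM to 25.9, 38.6 and 44.8 RPKM with no overlap. The lipid transfer gene Atg2b rose from a mean of 1.04 to 6.13 RPKM. Its paralogue Atg2a (means 1.23 and 3.59 RPKM) and the WIPI gene Wipi1 (means 3.34 and 0.601 RPKM) were not called.

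The conjugation enzymes split, with 3 rising, 3 falling and Atg16l1 not called (means 5.60 and 5.88 RPKM). Atg5 fell from 573, 526 and 246 RPKM to 62.5, 33 and 61.8 RPKM, without overlap (fell by 3.03 ± 0.45 on the log2 scale, adjusted p = 0.00115). Its partner Atg12 fell from 239, 117 and 107 RPKM to 36.7, 31.7 and 57.1 RPKM (fell by 1.80 ± 0.43, adjusted p = 0.0106). Atg10, the enzyme that joins these 2 proteins, fell from a mean of 12.2 to 2.14 RPKM, although its groups overlapped and the call held under 6 of 13 alternatives. Atg7, the activating enzyme shared by both reactions, rose from 0.409, 0 and 0 RPKM to 9.42, 20.7 and 15.2 RPKM (3.78 ± 0.41, adjusted p = 0.000282). Atg3, which passes ATG8 proteins to lipid, rose from a mean of 7.84 to 56.7 RPKM. Atg16l2 was listed at 0 in every in vivo 2-cell library and at 5.33, 7 and 7.43 RPKM in the 4-cell libraries.

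The ATG8 genes changed most as a family: 4 of the 4 tested rose. Map1lc3b (LC3B) went from 9.60, 5.87 and 7.76 RPKM to 577, 489 and 532 RPKM (5.95 ± 0.32, adjusted p = 2.68e-05). In the annotation 11.6% of the last 500 exonic bases of Map1lc3b lie over Zcchc14. Gabarapl2 (GATE-16) went from 10.6, 14.5 and 30.7 RPKM to 551, 589 and 644 RPKM (5.06 ± 0.43, adjusted p = 0.000101). Map1lc3a rose from a mean of 6.90 to 477 RPKM and Gabarap from 1.00 to 100 RPKM, also without overlap. Gabarapl1 was listed at 0 in every in vivo 2-cell library and stayed under the filter, with a mean of 0.775 RPKM at the 4-cell stage. Summed over the 5 genes, ATG8 RNA was 28.0 to 39.2 RPKM in 2-cell and 1605 to 1782 RPKM in 4-cell embryos in vivo. Sums and shares of RPKM depend on the exon length of each gene, from 1181 bases (Map1lc3a) to 7517 bases (Map1lc3b). Of the proteases that trim ATG8 proteins, Atg4b rose from a mean of 3.09 to 25.8 RPKM, and Atg4d was listed at 0 in every 2-cell library and had a mean of 8.90 RPKM at the 4-cell stage. Atg4a was not called (means 10.8 and 2.41 RPKM), and Atg4c was listed at 0 in all 3 4-cell libraries.

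**Figure D2:**
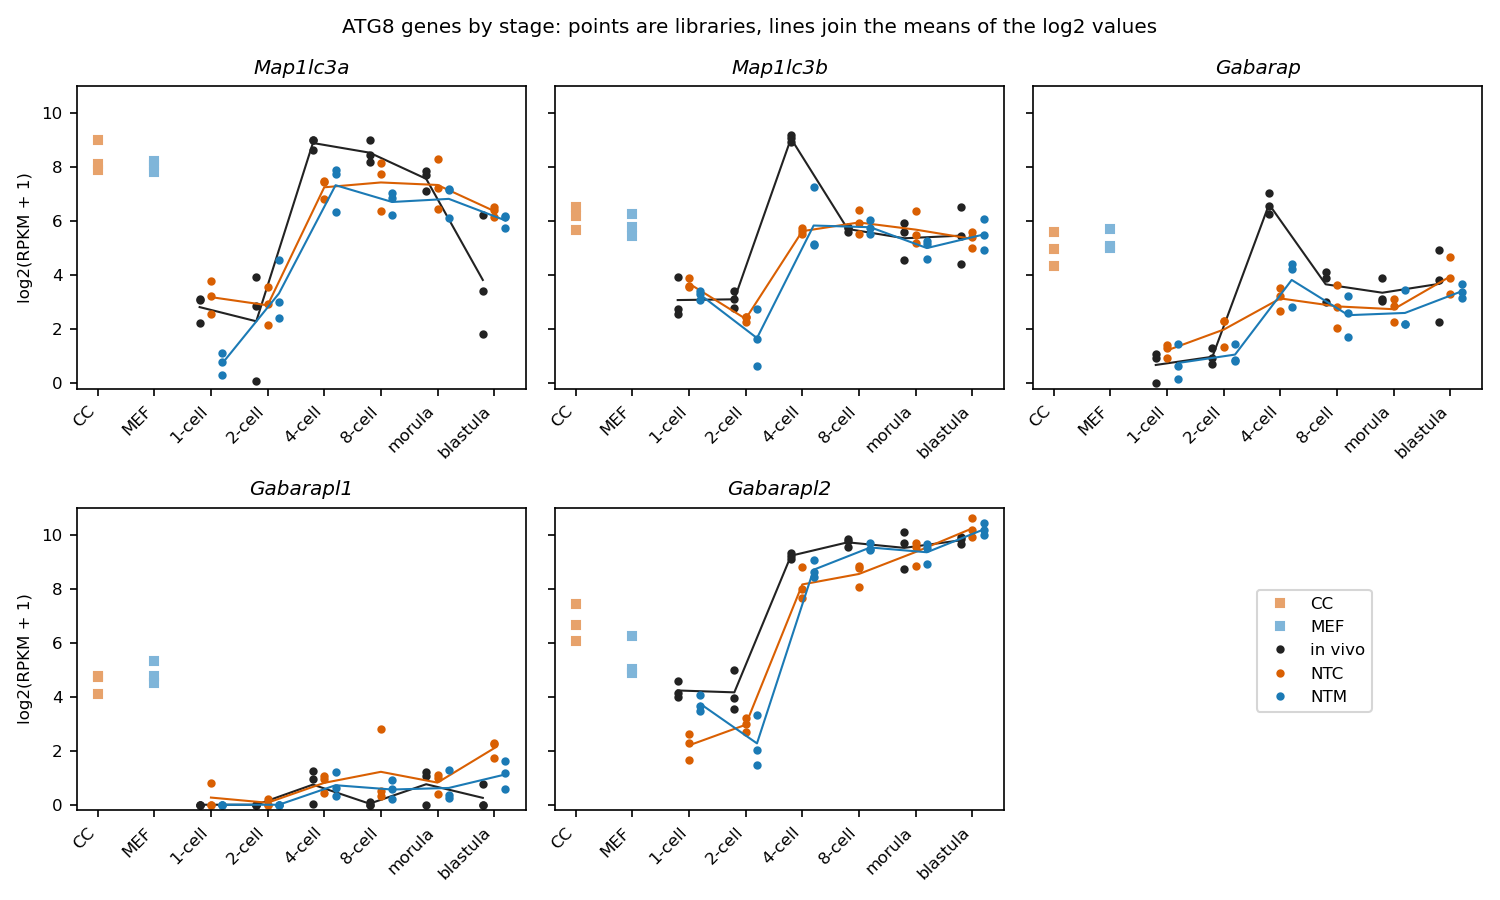
Log2(RPKM + 1) of the 5 ATG8 genes (vertical axis) in the donor cells and by stage (horizontal axis); points are single libraries and lines join the group means of the log2 values. Gabarapl2, Map1lc3a and Map1lc3b step up at the 4-cell stage in all 3 embryo types, Gabarapl1 remains near 0 in embryos, and Map1lc3b and Gabarap reach means of 533 and 100 RPKM in in vivo 4-cell embryos against 48.5 and 8.06 RPKM in NTC embryos.

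Among receptors, Sqstm1 had 0.992, 0.107 and 4.49 RPKM in in vivo 2-cell and 3.74, 16.6 and 11.7 RPKM in 4-cell embryos, and 1 4-cell library lay within the 2-cell range. It was called at 2.15 ± 0.73 (adjusted p = 0.0415), and the call held under 5 of 13 alternatives. In the annotation 66.0% of its last 500 exonic bases overlap the opposite-strand gene Mrnip, which had a mean of 5.63 RPKM in these 2-cell embryos, so low values of Sqstm1 are uncertain. Optn, a receptor for ubiquitin-marked mitochondria and bacteria, fell from a mean of 8.70 to 2.16 RPKM, a call that held under 6 of 13 alternatives. Nbr1, a relative of Sqstm1, was not called (means 24.2 and 8.02 RPKM). Pink1, the kinase that marks damaged mitochondria, rose from a mean of 0.00755 to 6.65 RPKM.

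Since the in vivo 4-cell libraries stood apart, the same step was also taken from the 2-cell to the 8-cell stage, a comparison chosen after seeing the data. It called 14 members, 10 higher (Atg2a, Atg3, Atg4b, Atg7, Gabarap, Gabarapl2, Map1lc3a, Map1lc3b, Pink1 and Ulk1) and 4 lower (Atg10, Atg5, Nbr1 and Optn), where 41.6% of all genes tested were called (13.8% higher and 27.8% lower). Atg101, Atg2b and Sqstm1 then had log2 differences of -0.34, -0.29 and -0.72 and were not called.

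In NT embryos fewer members were called at this step than in vivo, and so were fewer of all genes. The shares of members tested that were called (40.0% in NTC and 21.4% in NTM embryos) were near those of all genes. In NTC embryos 9 of 30 members tested rose and 3 fell (36.6% of all genes tested were called, with 16.4% higher and 20.1% lower, and the medians were 1.09 over the members and -0.20 over all genes). In NTM embryos 6 of 28 rose and 0 fell (26.4% of all genes, 12.1% higher, medians 1.2 and -0.20), where median-ratio scaling gave 1 that fell, Optn. An unadjusted p under 0.05 was reached there by 13 of 28 members and by 4576 of all 11742 genes. Leaving out 1 library gave 9 to 14 calls in NTC and 3 to 7 in NTM embryos, with 3 without NTM 2-cell replicate 3, 4 without NTM 2-cell replicate 1 and 16 in one fit over all 20 groups. A test of the difference in change between types called 9 of 31 members for NTC against in vivo embryos (14.3% of all genes, 2.38% higher and 12% lower) and 6 of 30 for NTM against in vivo embryos (9.91%, 1.86% higher and 8.05% lower), both against the same in vivo libraries. The changes of Atg101, Becn1, Atg9a, Atg7 and Gabarap were smaller in each NT type, and that of Atg12 was higher. Becn1 in both tests, and Atg9a in that of NTM, passed the filter only through the in vivo 4-cell libraries. The call of Gabarap in NTM held under 9 of 17 alternatives, and those of Atg12 under 10 (NTC) and 11 (NTM). From the 2-cell to the 8-cell stage 9 members were called in NTC embryos (35.1% of all genes) and 16 in NTM embryos (39.8%).

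Ulk1, Gabarapl2, Map1lc3a and Map1lc3b rose in all 3 embryo types, whose libraries are separate. The share of all genes that rose in all 3 types is not given, so this overlap has no background. Gabarapl2 had 8.19, 5.47 and 6.91 RPKM in NTC 2-cell embryos and 448, 201 and 253 RPKM in NTC 4-cell embryos (5.20 ± 0.41, adjusted p = 0.000129). In NTM embryos it had 9.06, 3.03 and 1.77 RPKM and then 528, 390 and 344 RPKM (6.43 ± 0.63, adjusted p = 0.000505). Neither pair of groups overlapped.

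Map1lc3b rose from 3.83, 4.42 and 4.42 RPKM to 52.4, 48.7 and 44.5 RPKM in NTC embryos (3.24 ± 0.38), and from 5.75, 2.09 and 0.548 RPKM to 34.4, 33.7 and 151 RPKM in NTM embryos (4.17 ± 0.84). The value of 151 RPKM came from NTM 4-cell replicate 3 and was over 4 times those of the other 2 libraries. Map1lc3a rose from means of 6.97 to 155 RPKM (4.37 ± 0.46) in NTC and from 11.3 to 178 RPKM (4.01 ± 0.74) in NTM embryos. Ulk1 rose from 3.88, 6.19 and 3.96 RPKM to 89.1, 39.4 and 64.8 RPKM in NTC embryos (3.48 ± 0.46), and from 6.50, 19.9 and 1.51 RPKM to 33.6, 51.7 and 117 RPKM in NTM embryos (3.03 ± 0.87). The call of Ulk1 in NTM embryos was lost without NTM 2-cell replicate 1 or 3, NTM 4-cell replicate 2 or 3, and with no filter on low values, with an adjusted p of up to 0.112.

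Other members rose in 1 NT type only, and whether the types differ was not tested for them. In NTC embryos Atg16l1, Atg3, Atg4b, Atg4d and Wipi2 rose as well, where the call of Atg16l1 held under 4 and those of Atg4b and Atg4d under 7 of 13 alternatives, and Atg5 (means 282 and 66.8 RPKM), Optn (5.43 and 0.343 RPKM) and Ulk2 (8.96 and 0.974 RPKM) fell. Atg4d, listed at 0 in the NTC 2-cell libraries, passed the filter only through the 4-cell libraries, and Optn only through the 2-cell libraries. In NTM embryos Atg13 (means 1.92 and 18.4 RPKM) and Gabarap (1.13 and 14.7 RPKM) rose as well, calls that held under 9 and 8 of 13 alternatives. Atg5 had 217, 148 and 170 RPKM in NTM 2-cell and 71.8, 208 and 52.4 RPKM in NTM 4-cell embryos, overlapped because of the 208 RPKM of replicate 2, and was not called (adjusted p = 0.282).

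**Figure D3:**
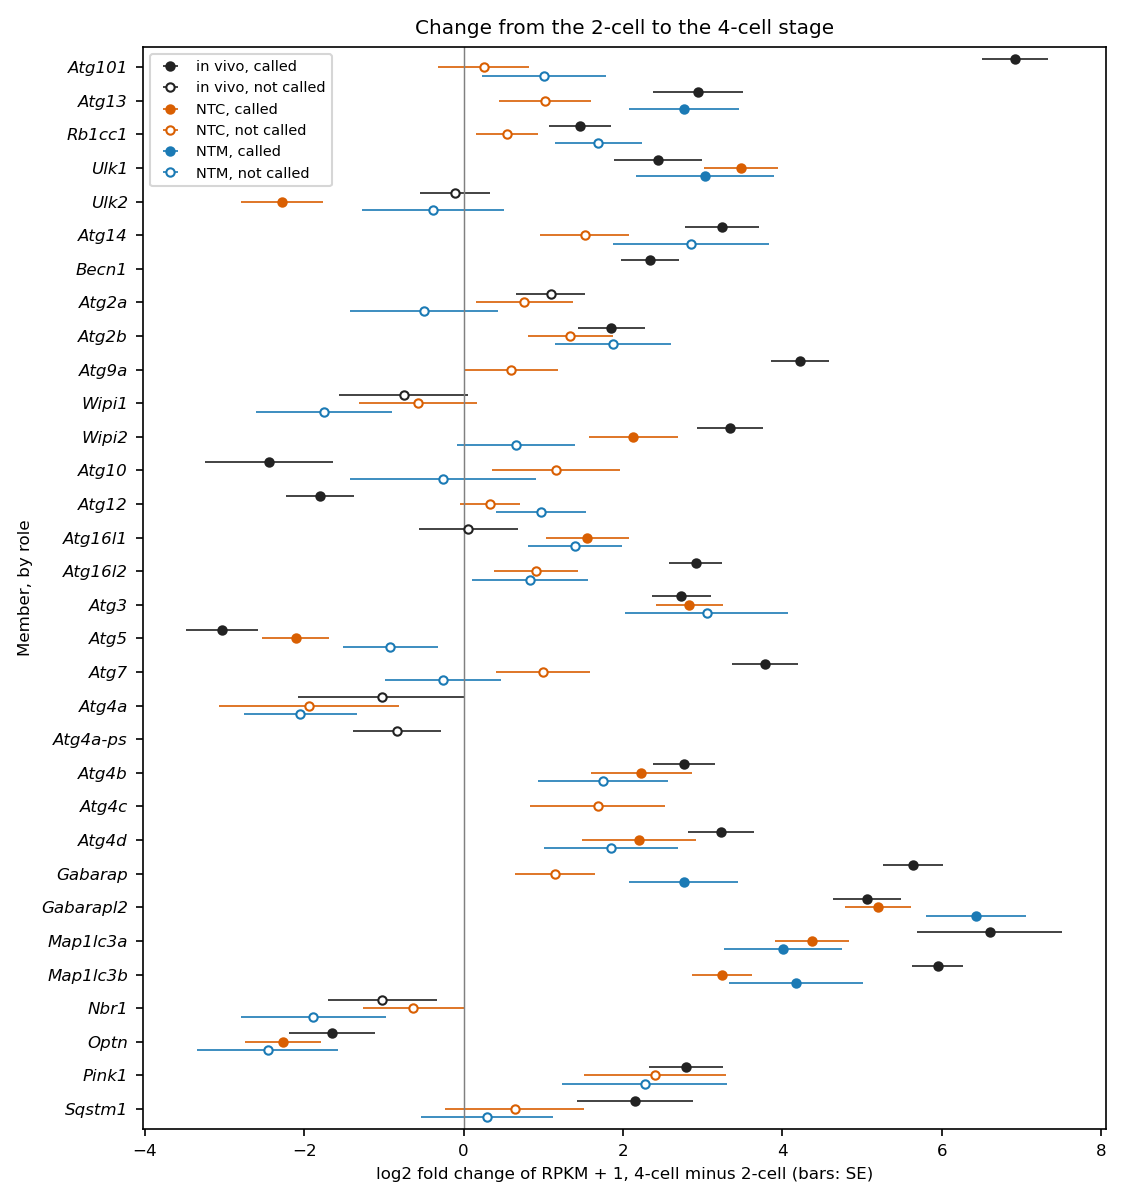
Log2 fold change of RPKM + 1 from the 2-cell to the 4-cell stage (horizontal axis, bars are the SE) of the members tested (vertical axis, by role) in in vivo, NTC and NTM embryos; filled points passed the threshold. The 4 ATG8 genes tested lie to the right of 0 in all 3 types, and Atg101 lies at 6.92 in vivo and at 0.25 and 1.01 in NTC and NTM embryos.

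From the 4-cell to the 8-cell stage in vivo, 14 of 30 members tested fell and 0 rose, where 43.7% of all genes were called and 39.3% fell. With median-ratio scaling, which moves the median of all genes from -1.05 to -0.33, 6 members rose and 7 fell, and over all genes the share of calls that were higher went from 10.1% to 42.2%. With nuclear reads only 1 rose (Gabarapl2) and 14 fell. The 7 that fell under each of these scalings were Atg101, Atg16l2, Atg4d, Atg9a, Becn1, Gabarap and Map1lc3b. Becn1 and Atg9a had 8-cell means of 0.111 and 0.0948 RPKM and passed the filter only through the 4-cell libraries. Atg101 fell from a mean of 289 to 0.682, 0.824 and 1.12 RPKM, and Map1lc3b from 533 to 52.0, 47.6 and 54.6 RPKM. Gabarapl2 had 738, 865 and 919 RPKM at the 8-cell stage, all above its 4-cell values, with a log2 difference of 0.50 ± 0.15 that did not reach the 2-fold limit. This step uses the same in vivo 4-cell libraries as the step before it, so opposite changes in the 2 steps are not independent. In NTC and NTM embryos limma called 0 members at this step (0.0564% and 0.363% of all genes), and 0 under each other scaling. At an unadjusted p under 0.05 there were 1 of 30 and 3 of 30 members, and 1139 of 10634 and 1092 of 9632 genes.

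At the 4-cell stage itself, each NT type was set against the in vivo embryos, and both comparisons use the same in vivo libraries. In NTC embryos 11 of 32 members tested were lower and 2 higher (27.8% of all genes were called, 20.4% lower and 7.4% higher), and the median log2 difference was -0.96 over the members and -0.39 over all genes. In NTM embryos 8 of 31 were lower and 1 higher (21.1% of all genes, 17.8% lower and 3.33% higher), with medians of -0.81 and -0.69. With median-ratio scaling 9 were lower and 2 higher in NTC and 5 lower and 2 higher in NTM embryos. Under that scaling the share of all calls that were higher went from 26.6% to 41.5% (NTC) and from 15.8% to 36.9% (NTM). The share of mitochondrial reads and the number of genes detected differed between these groups as given above.

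By role, of the ULK1 complex only Atg101 was called: it had 4.60, 1.51 and 2.30 RPKM in NTC and 0.467, 0.0832 and 5.91 RPKM in NTM embryos, against 342, 233 and 293 RPKM in vivo. Its log2 difference was -6.32 ± 0.37 in NTC (adjusted p = 1.11e-05) and -7.01 ± 0.71 in NTM (adjusted p = 0.000789). Ulk1 had values of 39.4 to 89.1 RPKM in NTC and 33.6 to 117 RPKM in NTM embryos against 34.2 to 46.5 RPKM in vivo, overlapped in both, and was not called (0.54 ± 0.35 and 0.49 ± 0.51). Becn1 had 0, 0.466 and 0.400 RPKM in NTC and 0.179, 0.130 and 0.630 RPKM in NTM embryos, all under the lowest in vivo value of 3.66 RPKM (-2.22 ± 0.45 and -2.19 ± 0.49). With NT means of 0.289 and 0.313 RPKM, Becn1 passed the filter only through the in vivo libraries. Its call held under 12 of 12 alternatives in NTC and 9 of 12 in NTM embryos. Atg9a had 1.38, 0.381 and 2.37 RPKM in NTC and 0.0499, 0 and 0.414 RPKM in NTM embryos, again below 18.5 to 24.1 RPKM in vivo (-3.25 ± 0.45 and -4.22 ± 0.49). In the NTM comparison (NTM mean 0.155 RPKM) Atg9a passed the filter only through the in vivo libraries, and its call held under 12 of 12 alternatives. Wipi2 had 10.3, 7.48 and 13.2 RPKM in NTC and 8.64, 1.49 and 9.86 RPKM in NTM embryos, against 25.9 to 44.8 RPKM in vivo. In NTM embryos its call held under 6 of 12 alternatives and was lost with median-ratio scaling or nuclear reads only.

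Among conjugation enzymes Atg7 was lower, with 3.13, 0.460 and 2.56 RPKM in NTC and 0.190, 0 and 1.95 RPKM in NTM embryos against 9.42 to 20.7 RPKM in vivo (-2.47 ± 0.53 and -3.34 ± 0.62). Atg12 was higher, with 89.9, 147 and 138 RPKM in NTC and 106, 223 and 160 RPKM in NTM embryos against 36.7, 31.7 and 57.1 RPKM in vivo (1.57 ± 0.32, adjusted p = 0.00737, and 1.92 ± 0.41, adjusted p = 0.0155). No NT value of Atg12 lay within the in vivo range. Its partner Atg5 had 37.9, 69.1 and 93.4 RPKM in NTC embryos, overlapped with 33 to 62.5 RPKM in vivo, and was not called in either type. In NTC embryos Atg16l1, which anchors the conjugate to membrane, was higher (mean 30.1 against 5.88 RPKM in vivo, a call that held under 6 of 12 alternatives) and Atg16l2 was lower (1.07 against 6.59 RPKM). The protease gene Atg4b was also lower there (10.3 against 25.8 RPKM), a call that held under 5 of 12 alternatives.

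Of the ATG8 genes, Map1lc3b had 52.4, 48.7 and 44.5 RPKM in NTC and 34.4, 33.7 and 151 RPKM in NTM embryos, all far below 489 to 577 RPKM in vivo (-3.43 ± 0.21, adjusted p = 1.37e-05, and -3.22 ± 0.57, adjusted p = 0.00701). Gabarap had 5.40, 10.4 and 8.36 RPKM in NTC and 20.4, 17.6 and 6.12 RPKM in NTM embryos, below 75.8 to 132 RPKM in vivo (-3.48 ± 0.36 and -2.80 ± 0.53). Map1lc3a had 178, 113 and 172 RPKM in NTC and 239, 215 and 79.1 RPKM in NTM embryos, below 400 to 517 RPKM in vivo (-1.64 ± 0.25 and -1.56 ± 0.44). In NTM embryos the call of Map1lc3a held under 5 of 12 alternatives and was lost with median-ratio scaling or nuclear reads only. That of Gabarap in NTM embryos was lost with median-ratio scaling. Gabarapl2 was lower in NTC embryos (-1.06 ± 0.29, adjusted p = 0.0263), but this call held under 4 of 12 alternatives and was lost with median-ratio scaling, nuclear reads only or no filter. It was not called in NTM embryos (-0.52 ± 0.24), where its difference was 0.26 with median-ratio scaling and 0.00 with nuclear reads only. The summed ATG8 level had means of 1705 RPKM in vivo, 513 RPKM in NTC and 687 RPKM in NTM embryos. Sqstm1 had 0, 12.4 and 3.08 RPKM in NTC and 3.44, 0.305 and 0.679 RPKM in NTM embryos, and was not called in either (adjusted p = 0.280 and 0.0620). All receptors and Pink1 stayed uncalled at this stage.

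**Figure D4:**
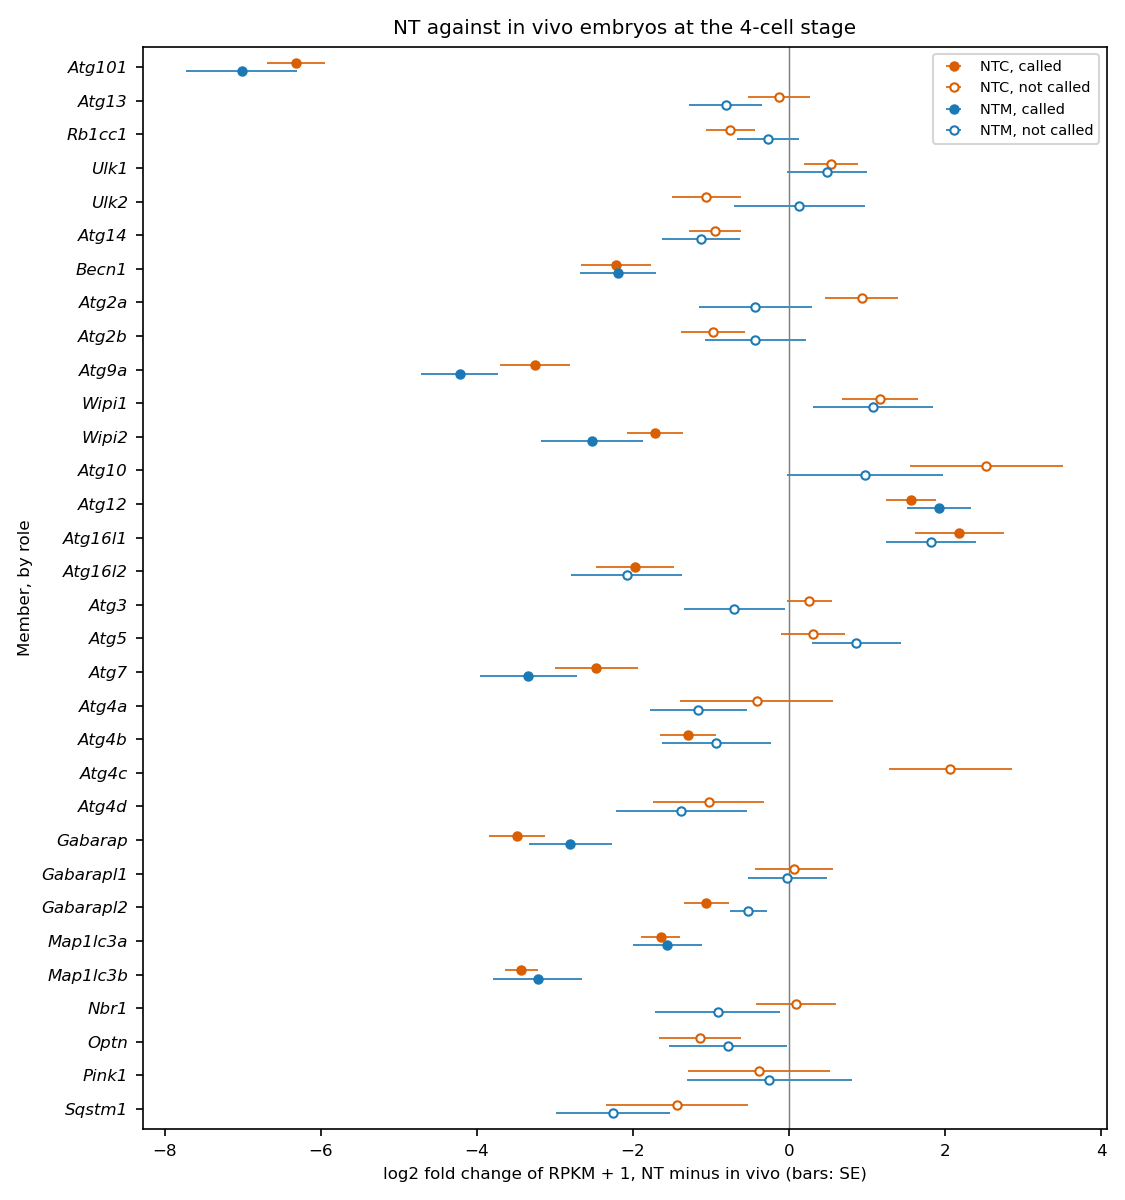
Log2 fold change of RPKM + 1 between NT and in vivo 4-cell embryos (horizontal axis, bars are the SE) for the members tested (vertical axis, by role), with NTC in orange and NTM in blue; filled points passed the threshold. Atg101 lies farthest to the left at -6.32 and -7.01, and Atg12 lies to the right of 0 at 1.57 and 1.92.

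These 4-cell counts depended on single libraries. In NTC embryos 8 to 13 members were called when 1 library was left out, with 8 without in vivo 4-cell replicate 2 or 3. In NTM embryos 3 to 11 were called: 3 without in vivo replicate 2 (Atg101, Atg9a and Map1lc3b), 5 without replicate 3, 6 without replicate 1 and 11 without NTM 4-cell replicate 3.

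At the 1-cell, 2-cell and morula stages, limma called 0 members in either NT type against in vivo embryos. In this order of stages 1.16%, 0.152% and 0.0321% of all genes were called in NTC and 1.28%, 0.141% and 0.168% in NTM embryos. The members at an unadjusted p under 0.05 numbered 7 of 26, 1 of 26 and 7 of 28 in NTC embryos. In NTM embryos they numbered 3 of 25, 3 of 26 and 3 of 29. Over all genes these numbers were 2517 of 10834, 1097 of 11822 and 1247 of 9341 in NTC embryos. They were 1525 of 10307, 1067 of 11345 and 849 of 8955 in NTM embryos. One fit over all 20 groups called 1 member in NTC 1-cell, 2 in NTM 1-cell and 3 in NTM 2-cell embryos. When in vivo 1-cell replicate 1 was left out, 4 members were called in NTC and 1 in NTM 1-cell embryos. Atg5 had 358, 468 and 445 RPKM in in vivo, 497, 537 and 553 RPKM in NTC and 264, 371 and 323 RPKM in NTM 1-cell embryos, the NTC values above and the NTM values mostly below those in vivo.

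At the 8-cell stage 0 of 29 members were called in NTC embryos (1.46% of all genes called), with 1 to 3 under 4 other settings. In that comparison 8 of 29 members and 1893 of all 9520 genes had an unadjusted p under 0.05. In NTM embryos Atg10 was higher, with 3.64, 9.60 and 10.6 RPKM against 0.0868, 0 and 0.107 RPKM in vivo (2.96 ± 0.57, adjusted p = 0.0310), where 2.02% of all genes were called (1.2% higher and 0.825% lower). Map1lc3a was lower, with 73.7, 114 and 132 RPKM against 509, 287 and 345 RPKM in vivo (-1.83 ± 0.33, adjusted p = 0.0238). Neither pair of groups overlapped, but of the 6 libraries only the omission of in vivo 8-cell replicate 3 left a call (Map1lc3a), and without any other library neither member was called. Atg10 passed the filter only through the NTM libraries, and with no filter 0 members were called.

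Before the 4-cell stage few members changed. In vivo, limma called 0 members between the 1-cell and 2-cell stages (0.0% of all genes), and 1 in one fit over all 20 groups. An unadjusted p under 0.05 was reached by 1 of 25 members and by 615 of all 10854 genes. In NTC embryos Map1lc3b fell from 10.9, 11 and 14 RPKM to 3.83, 4.42 and 4.42 RPKM (-1.30 ± 0.33, adjusted p = 0.0323, 13.5% of all genes called, 8.95% lower). The call was absent with median-ratio scaling and without any 1 of the 3 NTC 1-cell libraries (adjusted p of 0.0336 to 0.179 over its alternatives). In NTM embryos Wipi1 rose from 0.384, 0.107 and 0.165 RPKM to 7.83, 8.95 and 15.2 RPKM (3.21 ± 0.56, adjusted p = 0.0100), where 9.4% of all genes were called (2.72% higher and 6.68% lower). Atg101 (means 4.08 and 0.109 RPKM) and Atg12 (means 230 and 86.3 RPKM) fell in these embryos, and neither was called with median-ratio scaling or with nuclear reads only. Without any 1 of the 3 NTM 1-cell libraries, 0 of the 3 members were called. Wipi1 passed the filter only through the 2-cell libraries and Atg101 only through the 1-cell libraries, and with no filter 1 member was called.

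**Figure D5:**
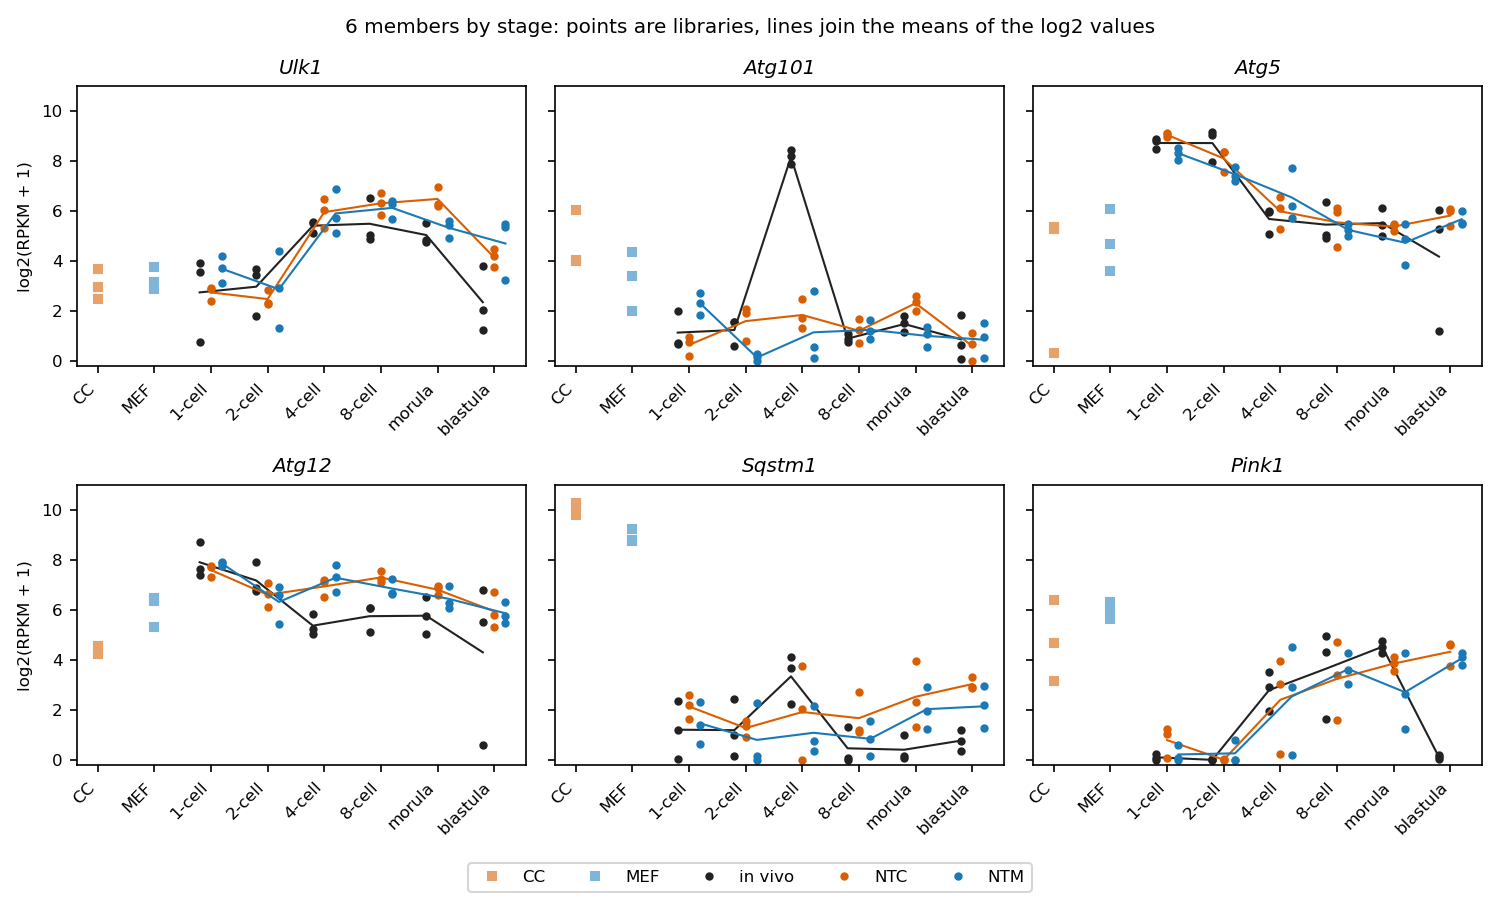
Log2(RPKM + 1) of 6 members (vertical axis) in CCs, MEFs and by stage (horizontal axis); points are single libraries and lines join the means of the log2 values. Ulk1 steps up at the 4-cell stage in all 3 types, Atg101 is at 233 to 342 RPKM in in vivo 4-cell embryos, Atg5 falls after the 2-cell stage, and Pink1 is near 0 in the 3 in vivo blastulas.

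From the morula to the blastula Pink1 was the only member called in vivo (0.801% of all genes, 0.452% lower). It had 26.5, 18.4 and 22.2 RPKM in morulas and 0.143, 0.0874 and 0.0326 RPKM in blastulas (-4.41 ± 0.74, adjusted p = 0.0391), with no overlap. The call was lost without any 1 of the 3 in vivo morulas and without in vivo blastula replicate 2 or 3. Pink1 passed the filter only through the morulas, and with no filter 0 members were called. In NTC embryos, where 7.16% of all genes were called (4.54% higher and 2.62% lower), Optn rose (mean 0.195 to 5.11 RPKM) and Ulk1 and Atg14 fell (91.1 to 17.0 and 57.0 to 11.6 RPKM). Optn passed the filter there only through the blastulas, and its call held under 8 of 12 alternatives. With median-ratio scaling or nuclear reads only Atg101 and Atg4b fell there as well. In NTM embryos limma called 0 members (4.22% of all genes), and Rb1cc1 fell with median-ratio scaling or nuclear reads only. An unadjusted p under 0.05 was reached there by 4 of 31 members and by 2276 of all 9823 genes.

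Blastulas of the NT types were compared with the same 3 in vivo blastulas. Pink1 was higher in both, with 24.0, 23.3 and 12.5 RPKM in NTC and 16.3, 18.7 and 12.8 RPKM in NTM blastulas against at most 0.143 RPKM in vivo. The log2 difference was 4.21 ± 0.58 in NTC (adjusted p = 0.0250) and 3.95 ± 0.62 in NTM embryos (adjusted p = 0.0494). It was 1 of 4 members of 30 called in NTC (9.46% of all genes, 8.81% higher) and the only one of 29 in NTM blastulas (0.746%, 0.565% higher). The others in NTC were Ulk2 (mean 8.33 against 0.0149 RPKM), Sqstm1 (7.31 against 0.769 RPKM) and Atg10, which was listed at 0 in all 3 in vivo blastulas and had 2.82, 3.69 and 13.4 RPKM in NTC. Pink1 in both comparisons, and Ulk2 and Atg10 in NTC, passed the filter only through the NT libraries. In NTC the calls held under 4 (Ulk2), 4 (Sqstm1), 3 (Atg10) and 10 (Pink1) of 12 alternatives. That of Pink1 in NTM held under 5 of 12. With no filter Pink1 alone was called in NTC and 0 members in NTM embryos. The median log2 difference in NTC blastulas was 1.33 over the members and 0.85 over all genes, and in NTM blastulas 1.06 and 0.86. With median-ratio scaling Pink1 alone was called in NTC and 0 members in NTM embryos, and over all genes the share of calls that were higher went from 93.1% to 51.5% in NTC. Without NTC blastula replicate 2, 0 members were called in NTC embryos. In NTM embryos the call of Pink1 was lost without in vivo blastula replicate 2 or 3 or NTM blastula replicate 1 or 2, and 5 members were called without NTM blastula replicate 3. In all 3 types Gabarapl2 supplied most of the summed ATG8 level in the blastula (90.2%, 89.6% and 90.6% in in vivo, NTC and NTM embryos), with values of 796 to 952 RPKM in vivo, 960 to 1545 RPKM in NTC and 998 to 1363 RPKM in NTM embryos.

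The NT types differed from each other at the 1-cell stage, where 19.8% of all genes were called (5.64% higher and 14.2% lower). Of 27 members tested, Gabarapl2, Nbr1, Atg101, Atg3 and Atg4a-ps were higher in NTM and Wipi1 and Map1lc3a were lower. Map1lc3a had 8.37, 4.84 and 12.8 RPKM in NTC and 0.718, 0.229 and 1.18 RPKM in NTM embryos (-2.45 ± 0.42, adjusted p = 0.00461). Gabarapl2 had 2.17, 5.18 and 3.93 RPKM in NTC and 11.6, 10.1 and 15.8 RPKM in NTM embryos (1.54 ± 0.34, adjusted p = 0.0137). Wipi1 had means of 9.70 and 0.219 RPKM and passed the filter only through the NTC libraries, and its call held under 12 of 12 alternatives. None of these groups overlapped, and leaving out 1 library gave 4 to 8 calls, the 4 without NTC 1-cell replicate 3.

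Between the donors only Sqstm1 was called among 32 members tested (6.29% of all genes, 2.3% lower). CCs had 1153, 1257 and 889 RPKM and MEFs 436, 448 and 601 RPKM, with no overlap (-1.15 ± 0.23, adjusted p = 0.0191). The call was lost without CC replicate 1 or 2 and without MEF replicate 1 or 2. Every embryo library was at 16.6 RPKM or below for this gene. Of the ATG8 genes, Map1lc3a had the highest mean RPKM in both donors (343 and 263 RPKM). Gabarapl2 had the highest mean RPKM in the embryo from the 4-cell stage on in all 3 types, although Map1lc3b exceeded it in in vivo 4-cell replicate 1. These orders depend on the exon lengths behind the values (1181 bases for Map1lc3a, 2325 for Gabarapl2 and 7517 for Map1lc3b), and the order in reads can differ.

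Of 59 further genes of the pathway (nutrient sensing, lipid kinase partners, membrane growth, other receptors, fusion, lysosome and transcription factors), 24 of 56 tested rose and 6 fell from the 2-cell to the 4-cell stage in vivo, which is 53.6% called against 52.2% of all genes. The lysosomal protease Ctsb rose from a mean of 0.927 to 222 RPKM. In NTC embryos 15 of 54 rose and 10 fell (46.3% against 36.6% of all genes), and in NTM embryos 13 of 55 rose and 1 fell (25.5% against 26.4%). Against in vivo 4-cell embryos 12 of 55 were lower and 4 higher in NTC (29.1% against 27.8% of all genes), and 8 of 55 were lower and 2 higher in NTM embryos (18.2% against 21.1%), shares near those of all genes. Those lower in both, measured against the same in vivo libraries, were Ctsb, Phb2, Pik3c3, Tmem41b, Tollip and Wdr45, and Rheb was higher in both. Pik3c3, the lipid kinase that Beclin 1 and ATG14 direct, was singled out after its values were seen and had means of 10.9 RPKM in vivo, 1.89 RPKM in NTC and 1.30 RPKM in NTM embryos (-2.02 ± 0.44 and -2.42 ± 0.56). Wdr45, a WIPI family gene, had means of 57.5, 3.31 and 5.67 RPKM (-3.75 ± 0.39 and -3.14 ± 0.48), and Tmem41b, a lipid scramblase of the endoplasmic reticulum, 963, 208 and 178 RPKM (-2.23 ± 0.22 and -2.50 ± 0.32). Ctsb had means of 222, 66.7 and 32.3 RPKM, the mitophagy receptor Phb2 34.4, 4.46 and 4.50 RPKM, and the receptor Tollip 27.3, 7.18 and 2.38 RPKM. Rheb, the activator of mTORC1, had 10.8, 94.6 and 103 RPKM (3.01 ± 0.33 and 3.10 ± 0.43). In blastulas 11 of 49 were higher in NTC (22.4% against 9.46% of all genes called) and limma called 0 of 50 in NTM embryos (0.746% of all genes). In the NTM comparison 22 of 50, and 2458 of all 9380 genes, had an unadjusted p under 0.05.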

How the data were processed

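Single embryos and donor cells were lysed, their RNA was reverse transcribed with poly(A) tailing and amplified by PCR without molecular identifiers, and the libraries were sequenced. The authors deposited 1 table of RPKM values per gene and library, with no counts. The submitters' processing notes name Bowtie 0.12.2 and build mm8, whereas the methods of the study name TopHat, Bowtie2 and HTSeq, so the build behind the values is uncertain and no coordinate was taken from it. Gene names, exon lengths and overlaps came from GENCODE M21 (GRCm38), which held 27013 of the 27238 identifiers. Depth was read from the steps of the values: with M21 lengths 27 members came out as whole reads (tolerance 0.02), for 7 the length was itself taken from the steps, and over all genes 71.5% to 73.9% of values per library were whole. Intervals and limits at 0 cover counting error only.

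RPKM was transformed to log2(RPKM + 1), which understates the change of low genes. Each of 26 pairs of groups was fitted with limma 3.58.1 (R 4.3.3, trended empirical Bayes) over all genes with a mean RPKM of 0.5 or more in the libraries compared, with Benjamini-Hochberg adjustment over all of them, and calls needed an adjusted p under 0.05 together with a change of 1 or more on the log2 scale. For the 2-cell to 4-cell step, 2 further fits tested the difference in change between each NT type and in vivo embryos. The fits were tested on simulated data first. Medians and counts were computed with Python 3.11.15 and pandas 2.3.3. Alternatives were a pseudocount of 0.1, no filter, no fold limit, median-ratio scaling, a replicate block, one fit over all 20 groups and leaving out each library. RPKM over nuclear reads only and 8-cell in place of 4-cell libraries were added after seeing the data.

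The members and the lists were chosen with earlier results of these data known. Values in every library were given for members called in the same direction in both NT types at 1 stage and for Ulk1, Becn1, Atg5, Map1lc3b, Gabarapl2 and Sqstm1, group means for members called in the 2-cell to 4-cell step of all 3 types, and up to 6 other pathway genes called in both NT types. Further members were described by role.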

Additional observations from a re-analysis of the deposited data

Results flagged for a closer look

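The change from the 2-cell to the 4-cell stage differed between embryo types for several members, by limma's test of the difference in change. Both contrasts use the same 6 in vivo libraries and are not independent. In both, Becn1 passed the filter only through the in vivo 4-cell libraries, and so did Atg9a in the contrast with NTM embryos. For NTC against in vivo embryos the difference in log2 fold change was -6.68 ± 0.68 (SE) for Atg101 (adjusted p = 6.83e-05), -4.49 ± 0.61 for Gabarap (adjusted p = 0.000459), -3.63 ± 0.67 for Atg9a (adjusted p = 0.00349) and -2.71 ± 0.46 for Map1lc3b (adjusted p = 0.00193). It was -2.79 ± 0.71 for Atg7 (adjusted p = 0.0201), -2.23 ± 0.52 for Becn1 (adjusted p = 0.0126) and -2.16 ± 0.65 for Ulk2 (adjusted p = 0.0431), and Atg12 moved the other way at 2.13 ± 0.59 (adjusted p = 0.0299). Atg16l2 had -2.01 ± 0.57 (adjusted p = 0.033), but it was listed at 0 in every in vivo 2-cell library, so its size depends on the pseudocount. The calls of Ulk2 and Atg16l2 held under only 2 and 3 of 17 alternatives, with an adjusted p of up to 0.101 for Ulk2 by limma. That of Atg12 held under 10 of 17.

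For NTM against in vivo embryos the difference was -5.91 ± 0.92 for Atg101 (adjusted p = 0.00191), -4.51 ± 0.60 for Atg9a (adjusted p = 0.000786) and -4.04 ± 0.83 for Atg7 (adjusted p = 0.00919). It was -2.88 ± 0.75 for Gabarap (adjusted p = 0.0294), -2.17 ± 0.54 for Becn1 (adjusted p = 0.0236) and 2.77 ± 0.73 for Atg12 (adjusted p = 0.031). The call of Gabarap held under 9 of 17 alternatives and was lost with median-ratio scaling or nuclear reads only. That of Atg12 held under 11 of 17. With nuclear reads only Atg101, Atg7, Atg9a, Becn1 and Atg12 were still called in both contrasts. The in vivo 4-cell libraries, which enter both contrasts, had 5.68% to 8.87% mitochondrial reads against 29.6% to 40.4% in the NT 4-cell libraries, and the part of this in the differences was not tested. Groups of 3 libraries are too small for a test of single outlying libraries.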

How the results depend on the processing

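The values here are numbers of members called unless a gene is named, and the cause of a change was not tested. The share of all genes called is not given for most of these settings, so a changed count can follow a change over all genes. With 1 fit over all 20 groups the numbers were 16 for the NTM 2-cell to 4-cell step, 7 for NTM and 1 for in vivo 1-cell to 2-cell, 0 for NTC 1-cell to 2-cell, 7, 1 and 1 for the in vivo, NTC and NTM morula to blastula steps, and 6 for MEFs against CCs. Against in vivo embryos that fit gave 1 (NTC) and 2 (NTM) at the 1-cell, 3 (NTM) at the 2-cell and 3 (NTC) and 0 (NTM) in 8-cell embryos, and 9 and 9 in blastulas, with 4 for NTM against NTC 1-cell embryos. Median-ratio scaling gave 0 (NTC) and 1 (NTM) for 1-cell to 2-cell, 5 (NTC) and 1 (NTM) for morula to blastula, and 1 (NTC 8-cell), 1 (NTC blastula) and 0 (NTM blastula) against in vivo. No filter gave 0 for MEFs against CCs, 0 for in vivo and 1 for NTC morula to blastula, 1 for NTM 1-cell to 2-cell, and 0 (NTM 8-cell), 1 (NTC blastula) and 0 (NTM blastula) against in vivo. Nuclear reads only gave 1 for NTM 1-cell to 2-cell, 2, 5 and 1 for the in vivo, NTC and NTM morula to blastula steps, and 4 for NTM blastulas. Over all genes, the calls in NTM blastulas against in vivo went from 70 to 1029 with nuclear reads only and to 18 with median-ratio scaling. A pseudocount of 0.1 gave 1 (NTC 8-cell) and 4 (NTM blastula) against in vivo, and 4 (NTC) and 3 (NTM) for the difference in the 2-cell to 4-cell change, where 9 and 6 had been called. No fold limit gave 3 for NTC 1-cell to 2-cell.

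With 8-cell in place of 4-cell libraries the step called 14 members in vivo and 16 in NTM embryos, and Atg101, Atg2b and Sqstm1 turned to -0.34, -0.29 and -0.72 in vivo. Gabarapl2 in NTM against in vivo 4-cell embryos turned to 0.26 with median-ratio scaling and to 0.00 with nuclear reads. Same-numbered libraries did not deviate together (correlations of -0.18 to 0.09), so the numbers did not pair the samples. The replicate block gave 0 for NTC 1-cell to 2-cell, 0 for in vivo morula to blastula, 0 for NTC and 0 for NTM blastulas and 2 for NTC 8-cell embryos against in vivo.

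Leaving out 1 library gave 0 to 0, 21 to 23, 13 to 15 and 0 to 1 for the in vivo steps in order of stage, 0 to 3, 9 to 14, 0 to 0 and 2 to 4 for NTC and 0 to 5, 3 to 7, 0 to 0 and 0 to 1 for NTM. Against in vivo it gave 0 to 4, 0 to 0, 8 to 13, 0 to 0, 0 to 0 and 0 to 3 from the 1-cell stage to the blastula for NTC, and 0 to 1, 0 to 0, 3 to 11, 0 to 1, 0 to 0 and 0 to 5 for NTM. It gave 4 to 8 for NTM against NTC 1-cell embryos, 0 to 1 for MEFs against CCs, and 6 to 9 (NTC) and 4 to 8 (NTM) for the difference in change. Uncalled values that changed sign were Sqstm1 from the 2-cell to the 4-cell stage (-0.27 to 1.60 in NTC, and -0.24 to 1.02 in NTM with -0.04 and -0.12 between) and the difference in change of Gabarapl2 for NTC (-0.28 to 0.45, with -0.19 between) and of Ulk1 for NTM (-0.18 to 1.35). Depth limits values near 0, where 3 reads or fewer may go unseen, and 3 libraries per group limit every test.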

Other observations

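Some members were high in 1 library of a group only. Atg4c, a protease of the ATG8 proteins, had 231 RPKM in in vivo blastula replicate 2 against 0.190 and 6.94 RPKM in the other 2. Atg10 had 59.4 RPKM in CC replicate 1 against 0.0197 and 0 RPKM in the others. Atg12 had 0.516 RPKM in in vivo blastula replicate 2 against 45 and 111 RPKM in the others.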
